A study of Mus musculus with 20 samples.

Results

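The Notch genes described here are 4 receptors (Notch1, Notch2, Notch3 and Notch4), 3 ligands (Jag1, Jag2 and Dll1), the nuclear effector Rbpj and the target genes Hes1 and Heyl. They were taken by symbol from the 54304 genes of the deposited table, all 10 were found, and all 10 were above 0 in each of the 20 libraries. RNA sequencing of polyadenylated RNA had been done on 2 populations of PDGFRβ-positive stromal cells sorted from gonadal fat, a white fat depot, of male animals: the LY6C-positive fibro-inflammatory progenitors (FIPs) and the adipogenic precursor cells (APCs), which were negative for LY6C and CD9. Both gates removed CD45-positive and CD31-positive cells. The 4 groups were APCs of control mice, APCs of Mural-Zfp423 transgenic mice, FIPs of control mice and FIPs of Mural-Zfp423 transgenic mice, with 5 libraries each. Animals of both genotypes were 8 weeks old in the labels, lived at 30 °C and had received a diet with 60% of its energy as fat for 1 month. Each library pooled RNA of 2 mice, and 10 mice of each genotype were used, so some FIP and APC libraries of a genotype hold RNA of the same animals. The sources used here give neither the alleles of the line, nor the promoter that drives its transgene, nor the genotype of the controls.

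Notch receptors are single-pass membrane proteins that are bound by Jagged or Delta-like ligands on a neighbouring cell. Binding opens the receptor to cleavage, first by an ADAM protease and then by gamma-secretase, and the freed intracellular domain enters the nucleus and joins the DNA-binding protein RBPJ and a Mastermind coactivator. Without that domain RBPJ recruits corepressors, and genes of the Hes and Hey families are the best-known targets. Notch3 is known as a receptor of pericytes and vascular smooth muscle, whereas Notch4 and Dll4 are known from endothelium.

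The 10 genes lie on 7 mouse chromosomes in GRCm38 (GENCODE M21). Notch1 (26457903 to 26516663) and Jag1 (137081456 to 137116644) are on chromosome 2. Notch3 (32120820 to 32166852), Notch4 (34564268 to 34588503) and Dll1 (15367354 to 15376872) are on chromosome 17. Rbpj spans 53466152 to 53657362 on chromosome 5, Notch2 98013527 to 98150361 on chromosome 3, Hes1 30064384 to 30067796 on chromosome 16, Jag2 112907819 to 112929776 on chromosome 12 and Heyl 123233556 to 123249875 on chromosome 4. Exons of Notch1, Notch2, Notch3 and Dll1 overlap other annotated noncoding transcripts, whose own values did not exceed 1.15 log2 CPM (log2 of read counts scaled to library size) in any library. The overlaps of Notch1, Notch3 and Dll1 are with the opposite strand. The sources used here do not give the strand setting of the counting, so reads in those overlaps cannot be assigned to one strand. The Notch2 overlap is on the same strand, where no strand setting would separate the reads.

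Promoter windows of 300 bases, most of each lying upstream of a RefSeq transcription start (GRCm38.p6), were listed for 8 of the 10 genes. Hes1 and Heyl had no entry. Rbpj and Notch2 are shown because they were the members called between genotypes in FIPs, and Notch1 and Notch3 because they were the receptors with the largest differences between the 2 cell populations. Capitals mark the core letters bound by RBPJ, TGGGAA, or their reverse complement TTCCCA.
Rbpj, chr5:53590096-53590395, plus strand: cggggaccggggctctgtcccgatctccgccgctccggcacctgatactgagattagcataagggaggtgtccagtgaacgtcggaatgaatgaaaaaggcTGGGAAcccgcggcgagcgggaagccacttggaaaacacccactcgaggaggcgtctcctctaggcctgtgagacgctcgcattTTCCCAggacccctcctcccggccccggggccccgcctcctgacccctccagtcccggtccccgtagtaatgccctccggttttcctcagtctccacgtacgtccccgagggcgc
Notch2, chr3:98013288-98013587, plus strand: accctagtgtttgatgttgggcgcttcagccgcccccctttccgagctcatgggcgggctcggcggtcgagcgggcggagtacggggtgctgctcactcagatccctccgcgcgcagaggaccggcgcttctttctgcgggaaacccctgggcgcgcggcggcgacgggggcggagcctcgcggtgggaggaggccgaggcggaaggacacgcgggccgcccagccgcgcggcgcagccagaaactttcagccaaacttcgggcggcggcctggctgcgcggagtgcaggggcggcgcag
Notch1, chr2:26503773-26504072, minus strand: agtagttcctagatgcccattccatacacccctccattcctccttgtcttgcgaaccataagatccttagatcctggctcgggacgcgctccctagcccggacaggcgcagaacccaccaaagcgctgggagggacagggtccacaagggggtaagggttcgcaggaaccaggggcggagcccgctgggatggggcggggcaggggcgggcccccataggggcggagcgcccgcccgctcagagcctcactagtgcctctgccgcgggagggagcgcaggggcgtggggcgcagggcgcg
Notch3, chr17:32166841-32167140, minus strand: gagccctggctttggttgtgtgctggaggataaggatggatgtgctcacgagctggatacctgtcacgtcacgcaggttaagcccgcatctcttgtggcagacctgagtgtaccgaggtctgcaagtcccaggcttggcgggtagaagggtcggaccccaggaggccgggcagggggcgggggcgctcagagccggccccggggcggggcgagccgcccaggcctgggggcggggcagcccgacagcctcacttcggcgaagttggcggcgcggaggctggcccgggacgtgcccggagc
The Rbpj window held 2 matches, which began at positions -149 and -65 relative to the start, and the second Rbpj window in the table overlaps the first and holds the latter of these again, at position -205 from its own start. The other 7 members with an entry had 0 matches. Over 32851 promoter windows of the same length, 25.6% held the 6-letter core on either strand and 3.79% held it at least 2 times. The longer form GTGGGAA, which contains the core, was in 6.38% of windows and in none of the members' windows. A match is a match of letters only.

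Library depth, read from the steps between low values, was 6.6 to 8.51 megareads, and libraries of a group correlated across genes at r = 0.9799 to 0.9945 (40 pairs). The sort was reflected in the markers: all 6 FIP markers, among them Ly6c1, Dpp4 and Cd55, were higher in FIPs of both genotypes, and 5 of 6 APC markers were lower. Summed over 19 endothelial markers, including Pecam1, which was gated out as CD31, the level was 9.9 to 10.41 log2 CPM over all libraries, to which Eng and Tek contributed at group means of 7.23 to 8.06. Zfp423 stood at 4.70 ± 0.27 log2 CPM in APCs labelled transgenic and 4.97 ± 0.17 in control APCs, and at 5.53 ± 0.04 and 5.47 ± 0.12 in the FIPs (mean ± SD, n = 5 each), so its level did not separate the genotypes in the direction of the label. Replicate 1 of both APC groups stood apart. Over 17435 genes, the library labelled transgenic APC replicate 1 lay at a root mean square distance of 0.372 log2 units from the other libraries with its label and 0.257 from the control APCs. The library labelled control APC replicate 1 lay at 0.374 from its own label and 0.31 from the other, and control APC replicate 2 was about as near to both (0.282 and 0.281). Genotype directions therefore rest on the labels, and the calls that involve APCs are also given without replicate 1 of both groups. Those 2 libraries were picked because they lay nearer the APCs of the other genotype label. Over all genes, leaving them out thus widens the genotype difference in APCs and narrows the spread by the choice itself. Calls gained that way are not independent evidence. Control APC replicate 2 was kept. Levels per kilobase and shares use all libraries.

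The comparison of FIPs with APCs asked how the 2 stromal populations differ in Notch components. In control mice Notch1, Notch3, Notch4, Jag2, Dll1 and Heyl were lower in FIPs, and Notch2, Jag1, Rbpj and Hes1 were higher. Thus Notch2 differed in the opposite direction from the other receptors, and Hes1 from Heyl. All 10 genes passed at an adjusted p of 0.05 in limma and none overlapped between the groups, beside 47.5% of 17435 genes that passed (19.6% higher and 27.9% lower in FIPs) and 31.4% without overlap. The median absolute difference was 0.80 log2 units over the 10 genes and 0.22 over all genes tested. The 10 genes were chosen with earlier results of these data known, so these shares are descriptive.

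Among the receptors, Notch3 had the largest difference. Its log2 CPM in the 5 control APC libraries was 7.86, 8.27, 8.46, 8.32 and 8.54, and in the control FIPs 6.87, 6.85, 7.15, 6.99 and 7.28. Every FIP library lay below every APC library, and the difference was -1.26 (SE 0.12, 95% confidence interval -1.51 to -1.01; limma, adjusted p = 2.89e-08), or 2.4-fold lower. Notch1, a receptor used in many tissues, read 7.61, 7.71, 7.81, 7.74 and 7.84 in control APCs and 6.37, 6.65, 6.64, 6.62 and 6.84 in control FIPs. It was 2.17-fold lower in FIPs (difference -1.12, SE 0.09; limma, adjusted p = 1.26e-09). Notch4 ranged from 6.19 to 6.81 in control APCs and from 5.41 to 5.85 in control FIPs (difference -0.81, SE 0.11). Notch2 went the other way. It read 8.13, 8.08, 8.00, 8.00 and 7.90 in control APCs and 8.66, 8.55, 8.54, 8.61 and 8.50 in control FIPs, a gain of 0.55 (SE 0.04; limma, adjusted p = 6.9e-10), or 1.46-fold. In a bulk sample, fewer cells that carry a transcript and less of it per cell cannot be told apart.

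Lists of markers of other cell types also differed between FIPs and APCs of control mice. Of 17 mural markers that leave out Notch3, 16 were lower and 1 was higher in control FIPs (median -0.89). Their summed level was 8.79 to 8.96 log2 CPM in control FIPs and 9.58 to 9.93 in control APCs. Of 19 endothelial markers 16 were lower and 2 higher (median -0.61), with sums of 9.9 to 10.2 and 10.09 to 10.41. Tek, which had the highest mean of that list in control FIPs, was 1 of the 2 higher (0.83). Mesothelial markers were lower in control FIPs too (9 of 10 lower, median -1.03), with sums of 7.59 to 8.11 against 7.99 to 8.2. Wt1, the 1 not called, had the highest mean of that list (7.48 against 7.16) and weighs most in those sums. Erythroid markers (5 of 5 tested lower, 8.81 to 9.03 against 9.65 to 10.59) were also lower, and of 14 macrophage markers 1 was lower. The part of RNA from these cells in the Notch differences was not tested.

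Among the ligands, Jag1 was the one that was higher in FIPs. Its log2 CPM was 6.81, 6.97, 7.23, 7.19 and 7.18 in control APCs and 7.66, 7.57, 7.66, 7.77 and 7.66 in control FIPs, a difference of 0.59 (SE 0.07; limma, adjusted p = 7.79e-07). Dll1, a Delta-like ligand, was near the lower end of measurement in control FIPs, at 2.38, 2.03, 1.70, 2.32 and 2.43, and read 3.61, 3.69, 3.43, 3.73 and 3.48 in control APCs. Its difference of -1.42 (SE 0.16; limma, adjusted p = 2.65e-07), or 2.67-fold lower, was the largest of the 10 genes. Jag2 ranged from 4.02 to 4.64 in control APCs and from 3.42 to 3.83 in control FIPs (-0.78, SE 0.13).

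Rbpj, through which all 4 receptors act, was the most tightly measured of the genes. It read 7.34, 7.36, 7.33, 7.34 and 7.22 in control APCs and 8.05, 8.05, 8.11, 8.11 and 8.00 in control FIPs, so that FIPs held 1.68-fold more (difference 0.75, SE 0.03; limma, adjusted p = 1.82e-13). Its 2 target genes differed in opposite directions. Hes1, a transcriptional repressor, read 5.76, 6.13, 6.02, 5.82 and 5.82 in control APCs and 6.38, 6.39, 6.36, 6.31 and 6.24 in control FIPs (difference 0.43, SE 0.06; limma, adjusted p = 1.69e-05). Heyl, a repressor of the Hey family, read 6.60, 6.53, 6.29, 6.53 and 5.96 in control APCs and 4.88, 5.03, 5.25, 5.32 and 5.10 in control FIPs (difference -1.27, SE 0.13; limma, adjusted p = 1.11e-07).

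**Figure D1:**
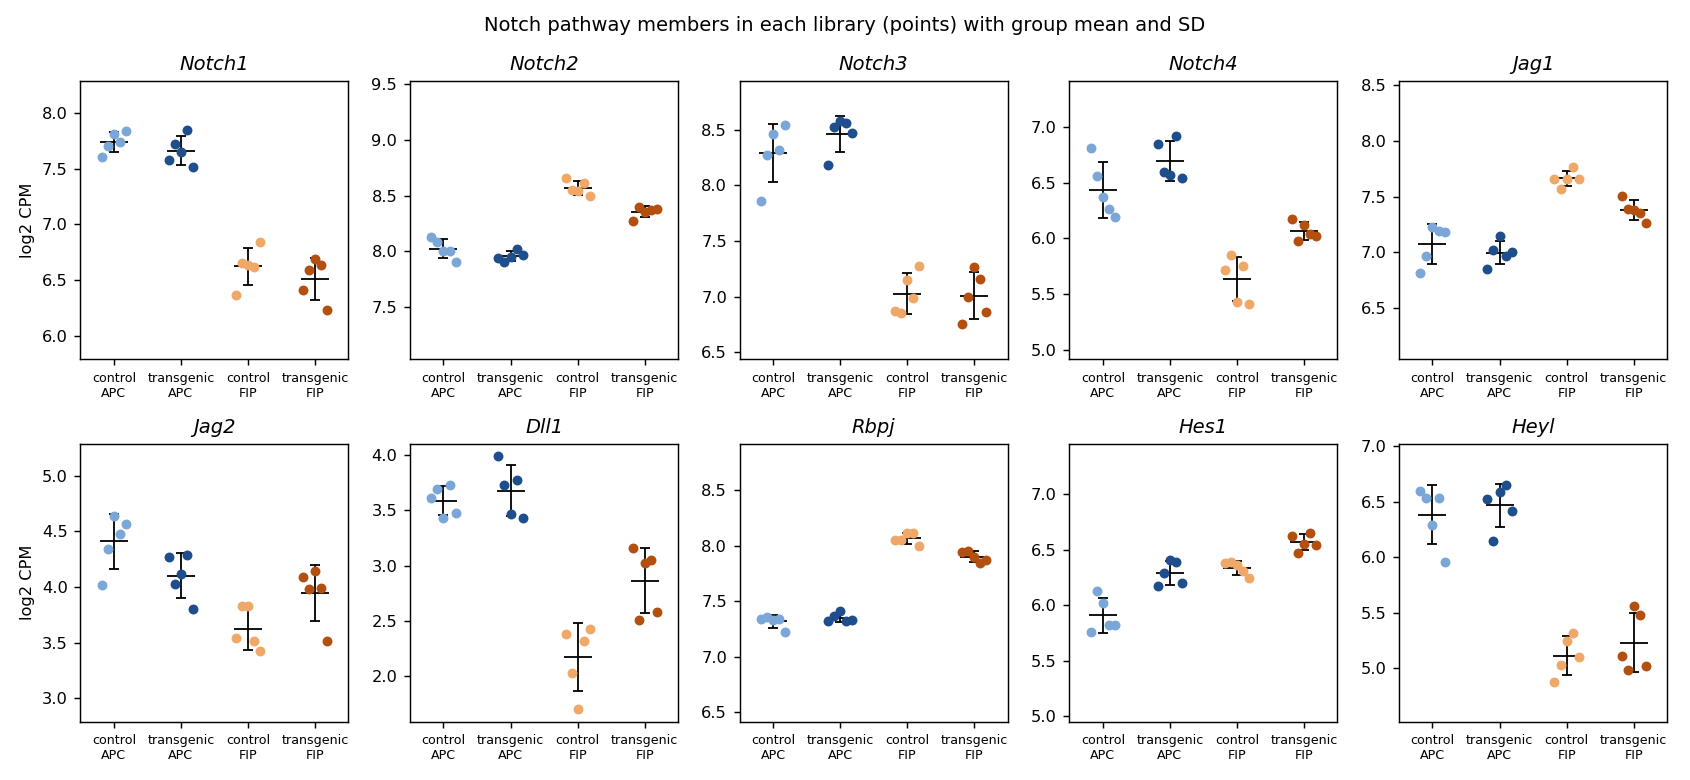
Level of each of the 10 genes (log2 CPM, vertical axis, each panel spanning at least 2.5 log2 units) in the 5 libraries of each group (points), with the group mean and SD (bars). Notch1, Notch3, Notch4, Dll1 and Heyl lie lower in the FIPs on the right of each panel, and Notch2, Jag1, Rbpj and Hes1 lie higher there.

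In mice labelled transgenic, the same comparison used other libraries and shared the variance estimate. Here 9 of the 10 genes passed in limma and 9 did not overlap, beside 41.7% of genes that passed (22.7% higher and 19% lower) and 29% without overlap. Notch3 differed by -1.46 (SE 0.12; 8.18 to 8.58 log2 CPM in APCs and 6.75 to 7.27 in FIPs), Notch1 by -1.15, Heyl by -1.23, Dll1 by -0.82 and Notch4 by -0.63, all lower in FIPs. Rbpj (0.55), Notch2 (0.40), Jag1 (0.38) and Hes1 (0.27) were higher. Jag2 did not pass: it ranged from 3.80 to 4.29 in these APCs and from 3.51 to 4.14 in these FIPs, a difference of -0.16 with a 95% interval of -0.44 to 0.12 (limma, adjusted p = 0.364). In these mice 10 of 17 mural markers were lower and 1 higher in FIPs, with a median of -0.46. Of 19 endothelial markers 2 were lower and 2 higher, with a median of -0.01. The part of either list in these differences was not tested. Without replicate 1 of both APC groups the same numbers of members passed, 10 in control mice and 9 in the others, beside 48.1% and 41.9% of all genes. Notch3 then differed by -1.37 and -1.53 in the 2 genotypes, and no member's direction changed.

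Levels of different genes were compared after division by the length of their annotated exons. On that scale (log2 CPM per kilobase) Notch3 was the highest receptor in control APCs at 5.27 ± 0.26, followed by Notch2 at 4.59 ± 0.09, Notch1 at 3.91 ± 0.09 and Notch4 at 3.43 ± 0.25 (SD, n = 5). The ranges of Notch1 and Notch4 overlapped and those of the higher neighbours did not. In control FIPs Notch2 led at 5.14 ± 0.06, ahead of Notch3 at 4.01 ± 0.19, with Notch1 at 2.79 ± 0.17 and Notch4 at 2.62 ± 0.20 overlapping. As a share of the summed receptor level per kilobase, Notch2 made up 27.2% ± 2.9 in control APCs and 54.6% ± 2.7 in control FIPs, while Notch3 made up 43.7% ± 5.5 and 25.1% ± 3.0. The leading receptor transcript was thus Notch3 in APCs and Notch2 in FIPs. The same held in mice labelled transgenic, where Notch2 took 24.5% ± 1.3 in APCs and 49.7% ± 2.4 in FIPs. The summed receptor level per kilobase was 6.48 ± 0.08 log2 units in control APCs and 6.02 ± 0.03 in control FIPs.

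For the ligands, Dll4, which is no member but has the same role, was added to the sum. Jag1 was the main ligand transcript in all 4 groups and took 63.9% ± 2.8 of the summed ligand level per kilobase in control APCs, 82.2% ± 2.4 in control FIPs, 62.5% ± 4.3 in APCs labelled transgenic and 71.2% ± 2.4 in FIPs labelled transgenic. Dll4 took 19.7% ± 2.6 in control APCs and 11.1% ± 2.3 in control FIPs, Jag2 8.44% ± 0.65 and 4.22% ± 0.60, and Dll1 7.94% ± 1.2 and 2.57% ± 0.52. The lowest 2 ligands, Jag2 and Dll1, overlapped in their level per kilobase in control APCs (1.22 to 1.84 and 1.35 to 1.65 log2 CPM per kilobase). The exon lengths join all annotated transcripts of a gene, so a gene with many rarely used exons is understated.

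**Figure D2:**
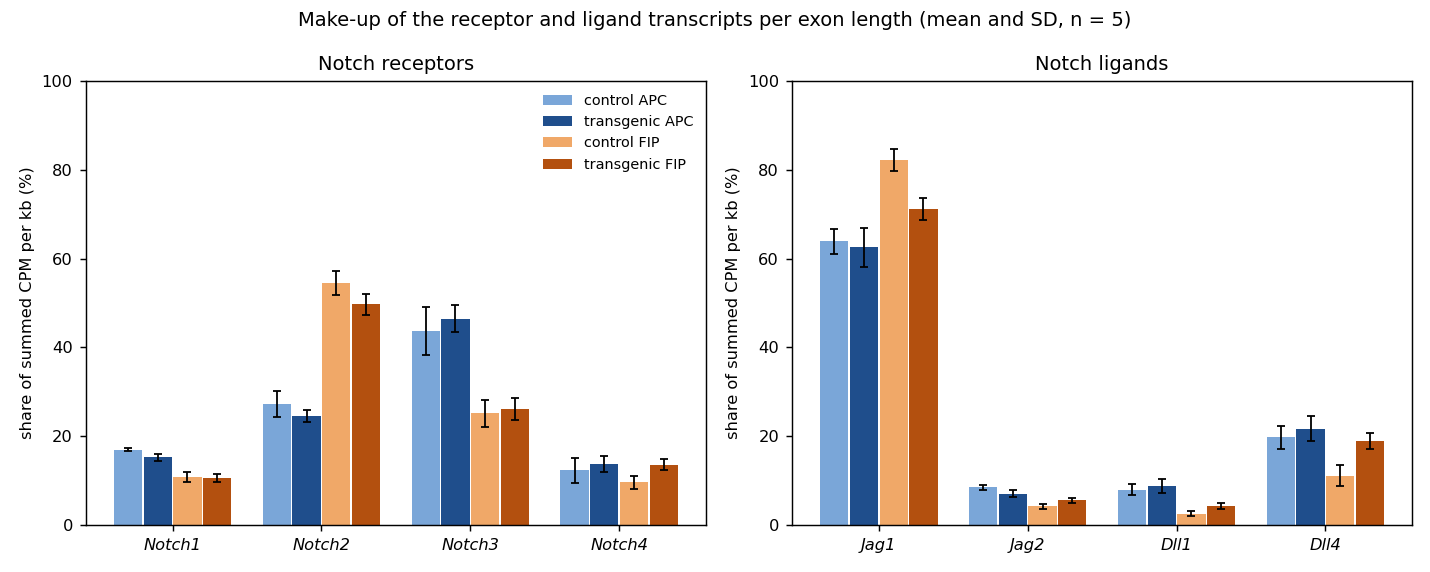
Share of each gene in the summed CPM per kilobase of exon (percent, vertical axis) for the 4 receptors (left) and 4 ligands (right) in the 4 groups, as mean (bars) and SD (whiskers) of 5 libraries. Notch2 rises from 27.2% in control APCs to 54.6% in control FIPs while Notch3 falls from 43.7% to 25.1%, and Jag1 is above 60% in every group mean.

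The rest of the pathway was described from 65 further genes grouped by role, of which 58 were tested. In control mice 15 were higher and 13 lower in FIPs (48.3%, beside 47.5% of all genes), with a median difference of 0.01. The share that passed was thus near that of all genes. The genes named here are those without overlap that had the largest differences. In receptor cleavage, where 4 of 10 genes were higher and 1 lower, the ADAM proteases that make the first cut after ligand binding were higher in FIPs. Adam10 stood at 7.62 ± 0.01 log2 CPM against 7.09 ± 0.04 in APCs and Adam17 at 7.62 ± 0.05 against 7.19 ± 0.08. Of the 5 genes of receptor glycosylation 2 were higher and 2 lower, the latter being the Fringe enzymes Lfng (-0.90) and Mfng (-1.06), which alter the response of the receptors to their ligands. Of the 6 genes of ligand endocytosis 2 were lower, among them the ubiquitin ligase Neurl1b (-0.79).

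Of 10 genes of receptor turnover 4 were higher and 1 lower. Dtx4, a Deltex ubiquitin ligase, differed by -0.79 and its relative Dtx3l by 0.67. Of 7 coactivators 1 was lower, the acetyltransferase Kat2b (-0.32), and 6 did not pass. Of 14 genes listed as corepressors 4 were higher and 4 lower. The latter include Rbpjl, a relative of Rbpj that was at 0 in 4 of 5 control FIP libraries. Fhl1, a LIM protein of which one isoform binds RBPJ, was higher by 0.44. Of the further ligands Dll4 was lower in FIPs by 0.62 log2 units (4.15 ± 0.31 against 4.77 ± 0.18; limma, adjusted p = 0.00102). Dlk1, a Delta-like protein that marks preadipocytes, also passed at the edge of the threshold with a difference of 0.79 but overlapped between the groups. Its level was low, at 1.62 log2 CPM in control FIPs and 0.84 in control APCs. Among further targets, Hes2, Hes3, Hes5 and Hes7 were listed at 0 in all libraries. Hes6 (0.01), Hey1 (-0.40) and Hey2 (0.14) did not pass, and Nrarp, an inhibitor that Notch itself induces, was lower but overlapped (-0.83; limma, adjusted p = 0.039). Nrarp (0.58 log2 CPM in control FIPs, 1.41 in control APCs) and Hey2 (0.19 and 0.05) were near the lower end of measurement.

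In mice labelled transgenic 13 of the 58 genes were higher and 12 lower in FIPs (43.1%, beside 41.7% of all genes). Adam10 (0.57), Adam17 (0.30), Lfng (-1.10), Neurl1b (-0.97) and Dtx4 (-0.79) kept their direction and passed in limma. Mfng (-0.44) and Dll4 (-0.004) did not pass there.

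**Figure D3:**
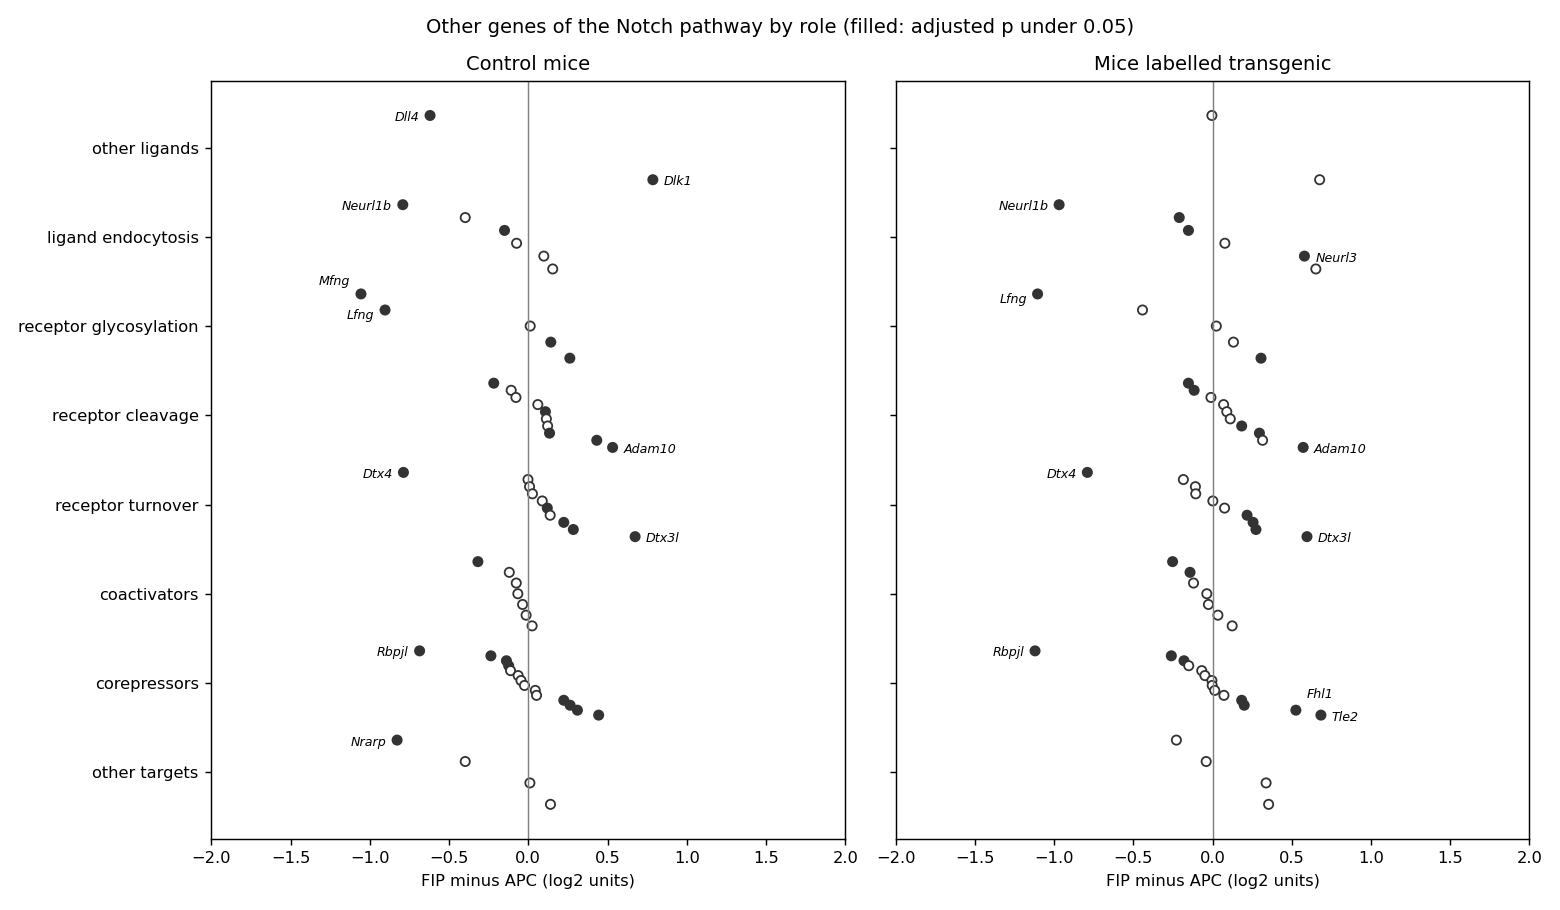
Difference between FIPs and APCs (log2 units, horizontal axis) for each of 58 further Notch pathway genes, arranged by role, in control mice (left) and mice labelled transgenic (right). Filled points passed at an adjusted p of 0.05 in limma, and labelled points are those among them past 0.5 log2 units, such as Lfng and Dtx4 to the left and Adam10 to the right in both panels.

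Genotypes were then compared within FIPs, to ask whether Notch genes differed in the line that carries the Zfp423 transgene. Notch2 and Rbpj fell in FIPs labelled transgenic. The other 8 genes did not pass, although 4 of them, Notch4, Jag1, Dll1 and Hes1, showed no overlap between the genotypes. In all, 6 of 10 genes did not overlap, beside 2.89% of genes tested, and 2 passed, both lower, beside 0.373% (0.241% higher and 0.132% lower). The median absolute difference was 0.22 log2 units over the 10 genes and 0.07 over all genes. These shares too are descriptive, as the genes were chosen with earlier results of these data known. This comparison uses the control FIP libraries that also enter the comparison of cell populations.

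Notch2 read 8.27, 8.40, 8.35, 8.37 and 8.38 log2 CPM in FIPs labelled transgenic, below all 5 control FIPs (8.66, 8.55, 8.54, 8.61 and 8.50). The difference was -0.22 (SE 0.04, 95% interval -0.30 to -0.13; limma, adjusted p = 0.0233), a 1.16-fold decrease. Rbpj read 7.94, 7.95, 7.90, 7.84 and 7.87 against 8.05, 8.05, 8.11, 8.11 and 8.00, a difference of -0.16 (SE 0.03, interval -0.23 to -0.09; limma, adjusted p = 0.0351). Both shifts were small and exceeded the spread within the groups. The calls ended when libraries were centred on their medians (adjusted p = 0.144 for Notch2 and 0.162 for Rbpj) or when only the FIP libraries were fitted (0.0563 and 0.067). With 1 library left out in turn, Notch2 lost its call without replicate 1 or 4 of the FIPs labelled transgenic or replicate 4 of the control FIPs, and Rbpj without any of 7 libraries, which were replicates 1, 3 and 4 of the FIPs labelled transgenic and replicates 1, 2, 3 and 4 of the control FIPs (adjusted p up to 0.066 and 0.104).

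The ligands of these FIPs had larger differences that missed the threshold. Dll1 read 3.16, 2.51, 3.02, 3.05 and 2.58 in FIPs labelled transgenic and 2.38, 2.03, 1.70, 2.32 and 2.43 in controls, a difference of 0.69 (interval 0.37 to 1.02; limma, adjusted p = 0.0566). Jag1 read 7.51, 7.39, 7.38, 7.35 and 7.26 against 7.66, 7.57, 7.66, 7.77 and 7.66 (-0.29, interval -0.43 to -0.14; adjusted p = 0.079 in limma). Jag2 overlapped (3.51 to 4.14 against 3.42 to 3.83; difference 0.32, limma adjusted p = 0.399). Of the 58 further genes 1 passed (1.72%, beside 0.373% of all genes): the ligand Dll4 rose from 4.15 ± 0.31 to 4.87 ± 0.20, by 0.72 (SE 0.14; limma, adjusted p = 0.0266). That call was lost in 6 of 20 fits that left out 1 library (without replicate 1, 3 or 4 of the FIPs labelled transgenic, or 1, 4 or 5 of the controls; adjusted p up to 0.0751) and with only the FIP libraries fitted (0.112).

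Of the remaining receptors, Notch4 read 6.17, 5.98, 6.12, 6.04 and 6.02 in FIPs labelled transgenic and 5.72, 5.85, 5.43, 5.75 and 5.41 in control FIPs (difference 0.43, interval 0.21 to 0.66; limma, adjusted p = 0.0826). Notch1 (-0.11, interval -0.29 to 0.07) and Notch3 (-0.02, interval -0.27 to 0.23) overlapped. Hes1 was 6.62, 6.47, 6.55, 6.65 and 6.54 against 6.38, 6.39, 6.36, 6.31 and 6.24 (0.23, interval 0.10 to 0.36; limma, adjusted p = 0.138), and Heyl overlapped (0.12, interval -0.16 to 0.39). Of 19 endothelial markers limma called 0 between these FIPs, with a median of 0.32. Their sum was 10.02 to 10.37 log2 CPM in FIPs labelled transgenic and 9.9 to 10.2 in controls. In the same comparison limma called 0 of 14 macrophage markers, with a median of -0.50 and sums of 7.47 to 8.39 against 8.07 to 8.94, and 0 of 17 mural markers, with a median of 0.17 and sums of 8.9 to 9.19 against 8.79 to 8.96. The mural markers Abcc9 (0.40), Acta2 (0.45) and Myh11 (0.27) were higher without overlap in FIPs labelled transgenic, beside 2.89% of all genes without overlap. Cspg4, Mcam and Higd1b had lower means there than in controls. These markers are named after their values were seen. The part of these lists in the Notch values was not tested. Without replicate 1 of both APC groups, which are not part of this contrast but share its variance estimate, the differences were the same and 5 members passed in place of 2, beside 0.723% of all genes in that fit: Notch2, Notch4 (adjusted p = 0.031), Jag1 (0.0186), Dll1 (0.0437) and Rbpj in limma.

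The comparison of genotypes within APCs gave 1 call, Hes1, which rose in the libraries labelled transgenic. Hes1 read 6.17, 6.29, 6.41, 6.39 and 6.20 there and 5.76, 6.13, 6.02, 5.82 and 5.82 in control APCs, so the groups did not overlap. The difference was 0.38 (SE 0.06, interval 0.25 to 0.52; limma, adjusted p = 0.00449), a 1.3-fold increase. Among all genes 8.01% passed (2.1% higher and 5.91% lower) and 2.92% did not overlap, so 1 of 10 was near the background by the first count. Hes1 passed in all 20 fits that left out 1 library (0.34 to 0.44) and without replicate 1 of both APC groups (0.38; adjusted p = 0.00102), but not when only the APC libraries were fitted (adjusted p = 0.114).

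The other 9 genes overlapped between the genotypes in APCs. Notch4 (0.26, limma adjusted p = 0.133) and Jag2 (-0.31, adjusted p = 0.153) had the largest differences among them. Jag2 read 4.27, 4.03, 4.12, 4.29 and 3.80 in APCs labelled transgenic and 4.02, 4.34, 4.64, 4.48 and 4.57 in control APCs, with replicate 1 of the controls the lowest of its group. Without replicate 1 of both groups, Jag2 differed by -0.45 (limma, adjusted p = 0.0256) and Notch4 by 0.31 (0.0341), and 3 of 10 members passed, beside 20.3% of all genes. That exclusion was chosen on the genotype distances, so its p-values are not those of an ordinary test. Rbpj (0.03, interval -0.04 to 0.10), Notch2 (-0.07, interval -0.15 to 0.02) and Jag1 (-0.08, interval -0.22 to 0.07) did not pass and had narrow intervals. Notch1 differed by -0.08, Notch3 by 0.17, Dll1 by 0.09 and Heyl by 0.08.

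Among the 58 further genes, 3 rose and 2 fell in APCs labelled transgenic (8.62%, beside 8.01% of all genes). Numbl, a relative of the Notch inhibitor Numb, rose by 0.24 (7.80 ± 0.06 against 7.57 ± 0.13; limma, adjusted p = 0.014) and Adam17 by 0.14. Rbpjl, a relative of Rbpj, rose by 0.72 but stayed low, at 1.51 ± 0.23 against 0.79 ± 0.25 log2 CPM. Mfng fell by 0.81 and Fhl1 by 0.18. None of these 5 passed when only the APC libraries were fitted. Numbl and Rbpjl passed in all 20 fits that left out 1 library. Fhl1 lost its call without replicate 2, 4 or 5 of the APCs labelled transgenic or 3 or 4 of the control APCs (adjusted p up to 0.0745), and with centring (0.366). Adam17 lost it without replicate 2, 3 or 5 of the former or 3, 4 or 5 of the latter (up to 0.103), and Mfng without replicates 2 to 5 of the former, 3 to 5 of the latter or 1 to 4 of the control FIPs (up to 0.136). Mfng also missed the threshold without a filter on low values (0.0614), with quantile normalization (0.0501) and with the replicate number as a block (0.0598). Without replicate 1 of both APC groups all 5 passed, Numbl at 0.27, Adam17 at 0.13, Rbpjl at 0.70, Mfng at -1.115 and Fhl1 at -0.165. Macrophage markers (8 of 14 lower, sums 7.75 to 8.46 against 8.41 to 9.12 log2 CPM) and erythroid markers (5 of 5 tested lower, 8.83 to 10.02 against 9.65 to 10.59) moved in the same comparison, as did 2 of 10 mesothelial markers, 1 endothelial marker in each direction and 1 mural marker. The 6 FIP markers were lower in APCs labelled transgenic, with sums of 7.57 to 7.78 against 7.98 to 8.24. The part of these shifts in the values of Hes1 and the other genes was not tested.

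**Figure D4:**
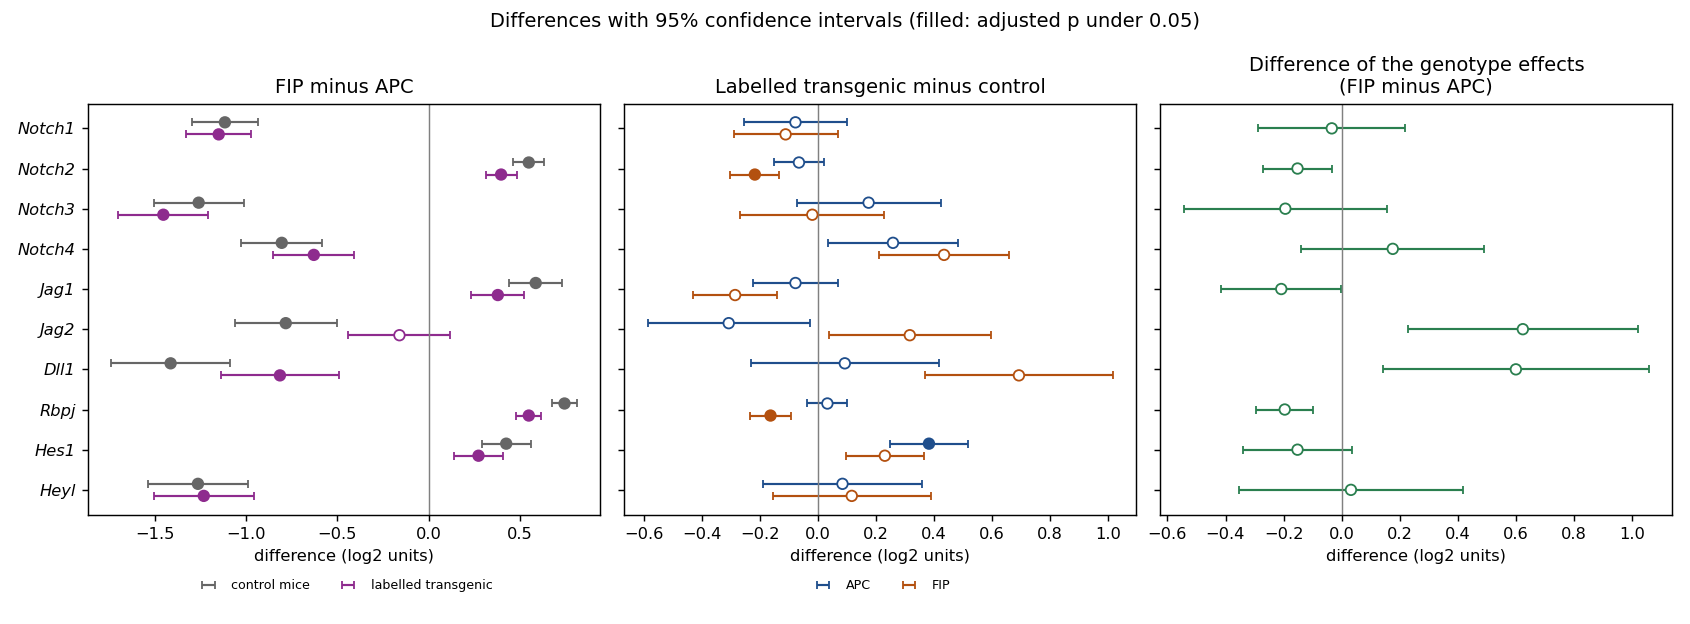
Difference (log2 units, horizontal axis) of each of the 10 genes between FIPs and APCs (left), between genotypes (middle) and between the genotype effects of the 2 populations (right), with 95% confidence intervals. Filled points passed in limma at an adjusted p of 0.05: 10 and 9 genes on the left, Notch2 and Rbpj in FIPs and Hes1 in APCs in the middle, and 0 on the right.

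Whether genotype differences depended on the cell population was tested as an interaction, the genotype difference in FIPs minus that in APCs. Limma called 0 of 10 members and 0 of 17435 genes, although 5 members had an unadjusted p under 0.05, beside 13.7% of all genes. The largest values were 0.62 for Jag2 (SE 0.19, interval 0.23 to 1.02; adjusted p = 0.2) and 0.60 for Dll1 (interval 0.14 to 1.06; adjusted p = 0.266). Rbpj differed by -0.20 (interval -0.29 to -0.10; adjusted p = 0.125). Without replicate 1 of both APC groups, Jag2 (0.76, adjusted p = 0.023) and Rbpj (-0.21, adjusted p = 0.0249) passed in limma, as did 5.49% of all genes. Without replicate 1 of the APCs labelled transgenic alone, Rbpj passed (adjusted p = 0.0391). The count of 0 thus changed without these libraries, which were picked on their distances to the genotype labels. For Hes1, called in APCs and not in FIPs, the interaction was -0.15 (interval -0.34 to 0.04; adjusted p = 0.458), and a difference between the populations was not shown.

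The genes whose profile over the 20 libraries was nearest were sought for the 4 members with the largest spread of group means, among 11848 genes with a mean of at least 2 log2 CPM, as the root mean square difference after each gene was centred on its own mean. Closest to Notch3 were Adgre5 (0.15 log2 units), Arc (0.16) and Lifr (0.16), and closest to Notch1 were Pcdh1 (0.11), Cdc42ep1 (0.12) and Tor4a (0.14). Mertk (0.17), Colgalt2 (0.17) and Gnao1 (0.175) were closest to Heyl. Peg10 (0.24) and Alpl (0.25) were closest to Dll1, followed by the unnamed locus AC161607.1. These distances describe the same 20 libraries, are set largely by the difference between FIPs and APCs, and were not tested.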

How the data were processed

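The deposited table held log2 CPM (counts scaled to library size), computed by the authors, for 54304 genes and 20 libraries; values of 1 CPM or less were listed as 0. Per the submitters' processing notes, the tools were Trim Galore 0.4.1, HISAT2 2.0.1, featureCounts 1.4.6 and DESeq2 1.6.3 with GRCm38. The sources used here do not give the annotation or the strand setting. Depth was estimated as the library size at which low values became whole reads; 75.7 to 79.4% of them did, within 0.0051 log2 units, which was too few for a count test.

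A linear model with a mean for each group was fitted to all 20 libraries with limma 3.58.1 (R 4.3.3) and a variance trend, on the 17435 genes above 0 in at least 5 libraries. Benjamini-Hochberg adjustment ran over all of these, at 0.05. This took pools as independent, and p-values measure the spread between pools of mice. The procedure was run on simulated data with independent libraries. These held no shared mice, no doubtful labels and no changes in genes of low level, so the run does not bear on those points. The members and lists were chosen with earlier results of these data known. Named pathway genes were those passing between genotypes or in the interaction, and in control mice up to 10 passing genes without overlap and with the largest differences between FIPs and APCs. Nearest profiles left out predicted genes. Exon lengths and coordinates came from GENCODE M21, which matched all 10 members, and promoters from RefSeq (GRCm38.p6). Alternatives changed the scaling, filter, samples fitted, variance model and replicate block, or left libraries out.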

Additional observations from a re-analysis of the deposited data

Results flagged for a closer look

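In 3 of 40 sets of 5 libraries (10 genes in 4 groups) 1 library stood apart from the rest of its group by Dixon's test, and chance flags about 1 in 20 sets. Notch3 was 8.18 log2 CPM in replicate 1 of the APCs labelled transgenic, the lowest of its group, with the next library at 8.47. Jag2 was 3.51 in replicate 5 of the FIPs labelled transgenic, the lowest there, with the next at 3.98. Rbpj was 7.22 in replicate 5 of the control APCs, with the next at 7.33.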

How the results depend on the processing

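All 10 members in control mice and 9 in mice labelled transgenic passed between FIPs and APCs under every alternative run. Between genotypes in FIPs the number passing, 2, became 0 with libraries centred on their medians, 0 with only the groups compared, 4 with the replicate block (Notch4 at adjusted p = 0.0315 and Dll1 at 0.0348 in limma), 3 with quantile normalization, 0 to 4 with 1 library left out (4 without control APC replicate 1), and 5 without replicate 1 of both APC groups, an alternative added after seeing the data. Between genotypes in APCs the 1 call became 2 with centring, 0 with only the groups compared, 1 to 3 with 1 library left out (3 without control APC replicate 1) and 3 without both replicates 1. For the interaction, 0 became 0 to 1 and 2 in the last 2 settings. The causes were not tested. The replicate block gave libraries of the same number in both genotypes a shared term, although these hold different mice. Calls gained with it are therefore not the outcome of allowing for shared animals. Whether the replicate number pairs FIP and APC libraries was not settled. After group means were removed, 5 of 10 pairs of a FIP and an APC library with the same number correlated at over 0.1. Of the 10 FIP libraries, 5 correlated best with their own number among the 5 APC libraries of their genotype, more than random matching gives on average. The consensus correlation within a number of a genotype was 0.16. Over the 10 members and 5 comparisons, 1434 of 1490 alternative values kept their direction and side of the threshold, 15 lost and 20 gained the threshold, and 21 values that were not called changed sign. Centring turned Notch1 (0.016), Notch2 (0.028) and Jag1 (0.016) in APCs, and the Heyl interaction (-0.084), which quantile normalization (-0.0056) and leaving out both replicates 1 (-0.009) also turned. With 1 library left out, signs varied for Notch3 in FIPs (-0.0855 to 0.0445), Heyl in APCs (-0.0215 to 0.163) and the interactions of Notch1 (-0.0975 to 0.0365) and Heyl (-0.05 to 0.1375). Centring moved the median of all genes for the interaction from 0.05 to -0.06, and the share of higher calls from 41.3% to 52.8% for FIPs against APCs in control mice, from 54.5% to 43.8% in mice labelled transgenic, from 64.6% to 51.9% between genotypes in FIPs and from 26.2% to 62.6% in APCs. Dll1, at a mean of 4.58 CPM in control FIPs, is the member whose precision depth limits most.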
